A study of Mus musculus with 8 samples.

Results

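The comparison is between cells sorted from mouse skin wounds 21 days and 15 days after wounding, described across all genes. The mice were Sm22-Cre;tdTomato on a mixed background. Wound tissue was dissociated with collagenase, viable cells with high tdTomato were sorted, and RNA was amplified and sequenced by SMART-seq2, a full-length cDNA protocol made for very small inputs. Sm22, also named Tagln, is a protein of smooth muscle and myofibroblasts, so its promoter can also mark vascular smooth muscle and pericytes, and Cre leaves the tdTomato label in a cell after Sm22 itself has been turned off. The labels call the sorted population cutaneous wound myofibroblasts. They give neither the number of animals behind a library nor whether the pair of libraries from a day had different animals, so a p-value speaks only of the spread among these libraries.

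The series holds 8 libraries, 2 on each of days 12, 15, 21 and 26. The comparison used the 2 libraries of day 15, which the authors' table numbers 1 and 3, and the 2 of day 21, numbered 2 and 3. All 8 entered the fit, so that the spread within each day was estimated from every day. Levels are TPM (transcripts scaled to a fixed total per library), a length-corrected share of a library's RNA. Of 43346 genes in the table, 15062 had at least 1 TPM in 2 or more of the 8 libraries and were tested. TPM keeps no sequencing depth, so no interval for counting error can be given.

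Myofibroblasts are the contractile, matrix-building fibroblasts of a healing wound. In mouse skin they divide and fill the wound bed with collagen, fibronectin and tenascins while the epidermis closes over it. Later the matrix matures, with elastic fibres and small proteoglycans added. In large mouse wounds, hair follicles and fat can form anew in the centre of the scar, and the study's title asks about fat cells that come from myofibroblasts. Bone morphogenetic proteins and Wnt proteins are among the signals that hair follicles and dermal cells exchange.

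The labelled cell type was checked against 12 markers of myofibroblasts and fibroblasts, and all 12 passed the filter. Their summed level was 57878 and 61716 TPM on day 15 and 95008 and 77040 TPM on day 21. Of the 12, 6 had log2 changes above 0 and 6 below, and none passed (7 with an unadjusted p under 0.05). Both day 21 libraries lay above both of day 15 for 5 (18.0% of all genes) and below for 5 (30.3%). The median log2 change was 0.05 and turned negative under quantile normalization (-0.14) and rescaling without the 20 highest genes (-0.24), and without library 3 of day 15 (-0.19) or library 2 of day 21 (-0.068). Col1a1, the main chain of type I collagen, made up much of the summed level, at 15530.5 and 17545 TPM on day 15 and 34736 and 27182 TPM on day 21. Its 2 day 21 libraries lay above both of day 15, but the gene did not pass (log2 change 0.90, SE 0.23, adjusted p = 0.0921). Postn, periostin, a matricellular protein of healing wounds, was lower, at 3262 and 3779 TPM on day 15 and 2206 and 1824 TPM on day 21, and did not reach the threshold (log2 change -0.81, SE 0.23, adjusted p = 0.119). Acta2, the smooth muscle actin that defines myofibroblasts, stood at 990 and 539 TPM on day 15 and 449 and 292 TPM on day 21, also short of the threshold (log2 change -1.01, SE 0.34, adjusted p = 0.167).

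Between day 15 and day 21, 211 genes passed the test, which is 1.40% of the genes tested. The test was limma on log2(TPM + 1), with a Benjamini-Hochberg adjusted p under 0.05 over all 15062 genes. Of these, 74 rose (0.491% of tested genes) and 137 fell (0.910%), and 64 of the genes that rose and 109 of those that fell did so by at least 1 on the log2 scale. Each of the 211 had both day 21 libraries on the same side of both day 15 libraries. Among all tested genes, 18.0% had both day 21 libraries above both of day 15 and 30.3% had both below, with no test. The median log2 change over all tested genes was -0.10.

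TPM are shares of a library, so a few abundant genes can move all others. The 20 highest genes took 17.43% and 21.28% of the TPM on day 15 and 26.3% and 28.7% on day 21. Other scalings moved the median by up to 0.14 on the log2 scale and with it the balance of calls. Genes that rose were 35.1% of the calls as deposited, 48.4% after quantile normalization, 55.4% after median-ratio scaling and 57.7% after rescaling without the 20 highest genes. No call changed its direction under these scalings. The counts depended on single libraries. Without library 2 of day 21, 4 genes passed, and without library 3, 2 did. Without 1 library of day 12 the count was 37, without library 1 or 3 of day 15 it was 78 or 57, and without library 1 or 2 of day 26 it was 315 or 321. Tnc and Hist1h2ap were the only genes named below that passed in each of the 8 fits that left out 1 library.

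**Figure D1:**
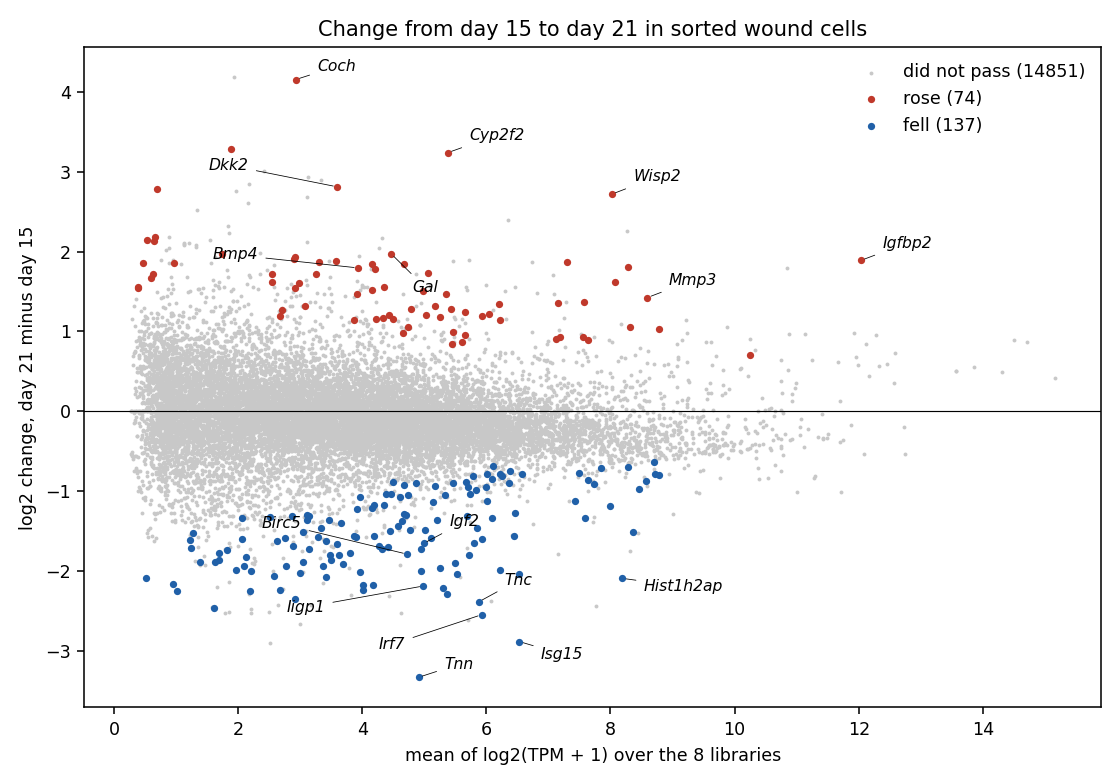
Log2 change from day 15 to day 21 (vertical axis) against the mean log2(TPM + 1) over the 8 libraries (horizontal axis), with 1 point for each of the 15062 tested genes. Red points are the 74 genes that rose and blue points the 137 that fell. The median of that mean level was 4.48 for the genes that rose, 4.61 for those that fell and 3.53 for all tested genes.

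The same genes were read in the 4 libraries of days 12 and 26, which the comparison did not set against each other. Of the 74 genes that rose, 60 had both day 26 libraries above both day 12 libraries (81.1%, against 17.9% of all tested genes). Of the 137 that fell, 131 had both day 26 libraries below both of day 12 (95.6%, against 43.5% of all tested genes). The spread within days 12 and 26 entered the test, so genes with close replicates there were favoured. Per1, Ctgf and 3 gene models went against this order among the genes that rose, with day 26 below day 12, and Deb1 did so among those that fell. Per1, Deb1 and the gene models were picked out after their values were seen.

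Genes of cell division were lower on day 21. Of 31 list members, all tested, 13 fell and none rose (0.910% of all genes fell). The median log2 change of the list was -1.36, against -0.10 over all tested genes, and all 31 members had both day 21 libraries below both of day 15. Birc5, the survivin protein of the chromosomal passenger complex, had 53.2 and 51.6 TPM on day 15 and 14.9 and 14.04 on day 21 (log2 change -1.79, SE 0.18, adjusted p = 0.010). The pairs of libraries were close together and far apart between days. Ccna2, cyclin A2, had 41.1 and 33.2 TPM on day 15 and 11.2 and 10.5 on day 21 (log2 change -1.68, SE 0.20, adjusted p = 0.0144).

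Top2a, the topoisomerase that untangles replicated chromosomes, had 24.8 and 18.3 TPM on day 15 and 6.17 and 4.74 on day 21 (log2 change -1.80, adjusted p = 0.0193). Aurka, a mitotic kinase of the spindle poles, had 13.3 and 14.6 TPM on day 15 and 2.45 and 3.75 on day 21 (log2 change -1.88, adjusted p = 0.0196). Cdk1, the kinase that drives entry into mitosis, had 91.6 and 91.4 TPM on day 15 and 26.07 and 21.7 on day 21 (log2 change -1.90, adjusted p = 0.0275). The cyclins that partner it, Ccnb1 and Ccnb2, also fell, by 1.57 and 1.70 on the log2 scale, though neither passed under quantile normalization, median-ratio scaling or rescaling without the 20 highest genes. Plk1, Ube2c, Tpx2 and Cenpf, which act in the spindle, in the destruction of cyclins and at the kinetochore, fell by between 1.36 (Plk1) and 2.00 (Cenpf), the Tpx2 and Cenpf calls being lost under rescaling without the 20 highest genes. Mki67, the usual marker of cycling cells, had 6.03 and 4.14 TPM on day 15 and 1.89 and 1.53 on day 21, short of the threshold (log2 change -1.15, adjusted p = 0.0776). Cdk1, Ccnb1, Ccnb2, Plk1, Ube2c, Tpx2, Cenpf and Mki67 were named after their values were seen. No member of the list passed without library 2 or library 3 of day 21, 2 or 3 did without 1 library of day 12 or 15, and its median stayed between -1.56 and -1.16 over the 8 fits.

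Genes of cell division are known to share promoter elements, the CCAAT box (CCAAT), bound by NF-Y, and the cell cycle homology region (TTTGAA), bound by the DREAM and MuvB complexes. The promoters of 4 of them are shown because these genes moved together. Each is the 150 bases before a RefSeq start on GRCm38.p6, written 5′ to 3′ on the gene's strand. For a gene with several starts, the start with the most matches was shown, so the numbers of matches reflect that choice. Capitals mark CCAAT or TTTGAA on either strand (ATTGG and TTCAAA on the other). The regions are chr10:69352913-69353062 on the minus strand for Cdk1, chr11:99024190-99024339 on the minus strand for Top2a, chr9:70421555-70421704 on the minus strand for Ccnb2 and chr2:164769779-164769928 on the plus strand for Ube2c.
Cdk1: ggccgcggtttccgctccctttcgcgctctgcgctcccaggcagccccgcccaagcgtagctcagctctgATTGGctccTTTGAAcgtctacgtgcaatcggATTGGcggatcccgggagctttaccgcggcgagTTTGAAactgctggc
Top2a: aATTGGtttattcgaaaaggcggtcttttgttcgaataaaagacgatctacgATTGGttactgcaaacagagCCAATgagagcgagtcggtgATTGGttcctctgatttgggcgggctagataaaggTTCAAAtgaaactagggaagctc
Ccnb2: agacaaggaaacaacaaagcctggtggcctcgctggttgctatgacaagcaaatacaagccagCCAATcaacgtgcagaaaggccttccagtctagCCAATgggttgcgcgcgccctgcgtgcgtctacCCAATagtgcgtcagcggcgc
Ube2c: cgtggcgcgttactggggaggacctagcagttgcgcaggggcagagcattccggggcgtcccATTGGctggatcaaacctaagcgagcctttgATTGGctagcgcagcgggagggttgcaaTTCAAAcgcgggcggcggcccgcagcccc

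The Cdk1 stretch held 2 matches to each element, that of Top2a 4 CCAAT matches and 1 to TTTGAA, that of Ccnb2 3 CCAAT matches and that of Ube2c 2 and 1. In windows from 250 bases before to 50 after the start, 21 of the 26 cell division genes with a promoter in the table held CCAAT (80.8%), against 42.9% of the 10903 tested genes with one. Likewise 21 of 26 held TTTGAA (80.8%, against 14.6%). In the MHC class I list described below, 16 of 18 genes had a promoter in the table, of which 11 held CCAAT (68.8%) and 1 held TTTGAA (6.25%). No such share is given for the 74 genes that rose, of which 44 had a promoter in the table, the 137 that fell (96), or the DNA replication (26 of 33), type I interferon (22 of 32) and GTPase (10 of 14) lists. Under 80% of each had one, and the check is void for sets so incomplete. A match is a description of the letters, not a binding site.

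DNA replication genes had smaller changes in the same direction. Of 33 members tested, 2 fell, none rose, and 31 had both day 21 libraries below both of day 15 (30.3% of all genes did). Their median log2 change was -0.85. Uhrf1, which carries DNA methylation over to new strands, had 14.1 and 11.6 TPM on day 15 and 4.42 and 4.78 on day 21 (log2 change -1.30, SE 0.25, adjusted p = 0.0464). Rrm1, the large subunit of ribonucleotide reductase, had 31.2 and 27.9 TPM on day 15 and 12.7 and 15.08 on day 21 (log2 change -1.04, SE 0.20, adjusted p = 0.0466). Neither passed under median-ratio scaling or rescaling without the 20 highest genes, Rrm1 also not under quantile normalization, and neither passed without any 1 library of day 12, 15 or 21.

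Histone genes of the clusters were among the genes with the largest falls. Hist1h2ap, an H2A gene in the cluster on chromosome 13 (GRCm38, 21833026 to 21833507, minus strand), had 606 and 690 TPM on day 15 and 142 and 161 on day 21 (log2 change -2.09, SE 0.14, adjusted p = 0.00120). Both day 12 libraries were near the day 15 level, at 650 and 720 TPM, and both day 26 libraries were lower, at 101 and 113. Hist1h2ae had 81.4 and 84.2 TPM on day 15 and 22.9 and 12.7 on day 21 (log2 change -2.21, adjusted p = 0.0285). Of 55 tested genes whose symbols begin with Hist and a digit, a group counted after its values were seen, 7 fell and none rose. Both day 21 libraries lay below both of day 15 for 29 of the 55 (30.3% of all genes). The median log2 change of the 55 was -0.53. Histone genes of a cluster are near-identical copies, so how reads were divided among them is uncertain. Most mRNAs of these clusters lack a poly(A) tail, and SMART-seq2 primes on poly(A).

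A further 6 genes that fell were picked after their values were seen, so they stand for no group. Stmn1, a microtubule destabilizer, had 178 and 134 TPM on day 15 and 58.3 and 45.9 on day 21 (log2 change -1.56, adjusted p = 0.0416). Hmgb2, a DNA-bending protein, fell by 1.08 and the tubulins Tubb5, Tubb2b and Tubb6 fell by 0.80, 1.05 and 0.77 on the log2 scale. Npm1, the nucleolar nucleophosmin, fell by 0.70. The tubulins and Npm1 did not pass under quantile normalization, median-ratio scaling or rescaling without the 20 highest genes, Stmn1 under the last of these and median-ratio scaling, and Hmgb2 under the last. The calls of all 6 were lost when any 1 library of day 12, 15 or 21 was left out. The tubulins have close copies, so the division of reads among them is uncertain.

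Genes of the interferon response were lower on day 21 and uneven on day 15. Type I interferons induce antiviral genes, and interferon-gamma induces large GTPases and genes of antigen presentation. Of 32 type I response genes tested, 7 fell and none rose. Both day 21 libraries lay below both of day 15 for 29 of the 32 (30.3% of all genes). The median log2 change was -1.73, the lowest of the 41 gene lists. Isg15, a ubiquitin-like protein attached to other proteins in this response, had 124 and 483 TPM on day 15 and 26.7 and 39.2 on day 21 (log2 change -2.88, SE 0.52, adjusted p = 0.041). Irf7, a transcription factor that amplifies the response, had 94.4 and 210 TPM on day 15 and 24.7 and 21.99 on day 21 (log2 change -2.55, SE 0.43, adjusted p = 0.0373).

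Library 3 of day 15 was above library 1 for 31 of the 32 genes. Rtp4 had 61.2 and 107 TPM on day 15 and 14.7 and 16.8 on day 21 (log2 change -2.29, adjusted p = 0.0198). Oas1a, which makes the messenger that activates RNase L, had 26.9 and 59.7 TPM on day 15 and 8.74 and 7.48 on day 21 (log2 change -2.18, adjusted p = 0.0325). Mx2, a dynamin-like antiviral GTPase, had 9.00 and 18.0 TPM on day 15 and 1.28 and 2.73 on day 21 (log2 change -2.24, adjusted p = 0.0314). Without library 3 of day 15 no gene of the list passed and the median was -1.20, and without library 1 it was -2.55 with 16 genes passing. None passed without library 2 or without library 3 of day 21. Isg15 and Irf7 did not pass under median-ratio scaling or rescaling without the 20 highest genes, Isg15 also not under quantile normalization, and Oas1a and Mx2 did not under the first of these.

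The interferon-inducible GTPases, which attack the vacuoles of intracellular pathogens, gave 7 falls and no rise among 14 tested (0.910% of all genes fell). All 14 had both day 21 libraries below both of day 15 (30.3% of all genes did). Their median log2 change was -1.26. Iigp1 had 51.9 and 61.3 TPM on day 15 and 13.4 and 10.1 on day 21 (log2 change -2.19, SE 0.19, adjusted p = 0.00629). Its call was lost only without library 3 of day 21 (adjusted p = 0.0984). Tgtp2 had 55.6 and 68.3 TPM on day 15 and 16.8 and 13.6 on day 21 (log2 change -1.96, SE 0.22, adjusted p = 0.0143). Gbp3 had 46.7 and 73.5 TPM on day 15 and 12.24 and 15.8 on day 21 (log2 change -2.002, adjusted p = 0.0279), and Igtp fell by 1.48 (adjusted p = 0.0242) but did not pass under quantile normalization or median-ratio scaling. The guanylate-binding genes and the pair Tgtp1 and Tgtp2 have close copies, so the division of reads among them is uncertain.

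Antigen presentation through MHC class I had smaller changes. Of 18 genes tested, 2 fell and none rose, with a median log2 change of -0.63. Both day 21 libraries lay below both of day 15 for 13 of the 18 (30.3% of all genes). Psmb8, a subunit of the immunoproteasome, had 181 and 279 TPM on day 15 and 97.4 and 109 on day 21 (log2 change -1.12, adjusted p = 0.0406). Psme2, an activator of the proteasome, had 267 and 276 TPM on day 15 and 162 and 170 on day 21 (log2 change -0.71, adjusted p = 0.0448). Neither passed under quantile normalization, median-ratio scaling or rescaling without the 20 highest genes.

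Interferon-induced genes are known to carry the interferon-stimulated response element, searched here as GAAA, any 2 letters, then GAAA (TTTC, any 2 letters, TTTC on the other strand), a motif added after the values were seen. The promoters of 5 genes that fell are shown, in the same form as above, with capitals on each match. Overlapping matches run together. The regions are chr4:156200819-156200968 on the minus strand for Isg15, chr5:120907526-120907675 on the minus strand for Oas1a, chr11:49064213-49064362 on the minus strand for Tgtp2, chr3:142559894-142560043 on the plus strand for Gbp3 and chr11:58199406-58199555 on the plus strand for Igtp.
Isg15: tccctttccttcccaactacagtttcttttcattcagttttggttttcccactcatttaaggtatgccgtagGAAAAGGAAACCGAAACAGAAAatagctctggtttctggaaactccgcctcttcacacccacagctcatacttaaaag
Oas1a: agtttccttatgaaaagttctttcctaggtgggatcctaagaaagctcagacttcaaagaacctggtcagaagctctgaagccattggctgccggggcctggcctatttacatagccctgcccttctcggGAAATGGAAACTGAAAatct
Tgtp2: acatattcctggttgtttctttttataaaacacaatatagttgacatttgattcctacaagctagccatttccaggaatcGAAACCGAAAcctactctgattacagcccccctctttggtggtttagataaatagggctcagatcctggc
Gbp3: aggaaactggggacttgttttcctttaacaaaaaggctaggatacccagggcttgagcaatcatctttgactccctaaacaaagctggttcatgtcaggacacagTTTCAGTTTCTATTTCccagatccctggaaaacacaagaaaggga
Igtp: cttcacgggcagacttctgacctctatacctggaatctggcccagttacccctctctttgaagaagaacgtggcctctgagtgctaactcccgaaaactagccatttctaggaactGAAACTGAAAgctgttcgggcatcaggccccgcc

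The Isg15 stretch held 3 overlapping matches that begin 78, 72 and 66 bases before the start, Oas1a held 2, Gbp3 held 2 on the other strand, and Tgtp2 and Igtp held 1 each. Of all 10903 tested genes with a promoter in the table, 3.91% held the motif in their windows, and of the 16 MHC class I genes with one, 4 did. These promoters were chosen among those that hold it, so they show where it lies and not how common it is.

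**Figure D2:**
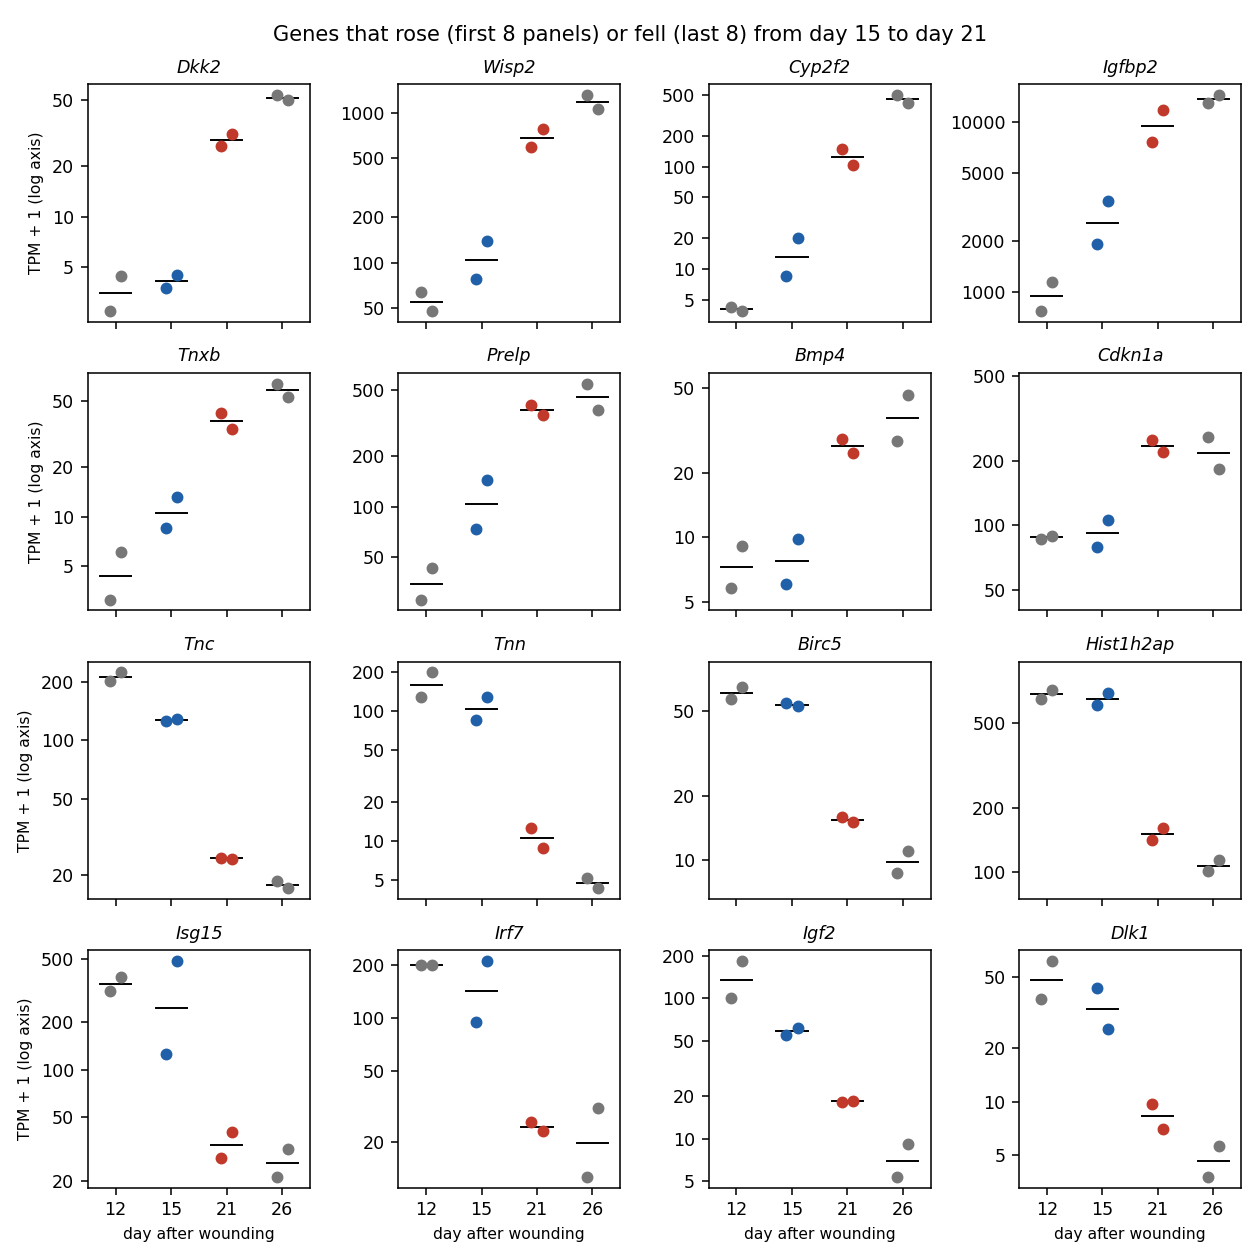
TPM + 1 on a log axis in each library of days 12, 15, 21 and 26 for 16 genes, with 1 point per library and a bar at the mean of the 2 log values. Day 15 is blue, day 21 is red, and the points of the 2 days do not overlap in any panel, from Dkk2 at 2.75 and 3.51 against 25.6 and 30.3 TPM to Dlk1 at 42.1 and 24.5 against 8.70 and 6.02 TPM.

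The matricellular proteins, which sit in the matrix and signal to cells more than they bear load, split into genes that fell and genes that rose. Of 18 tested, 3 rose and 2 fell, 12 had both day 21 libraries above both of day 15 (18.0% of all genes did) and 4 had both below. Tnc, tenascin-C, a protein of young granulation tissue, had 126 and 128 TPM on day 15 and 23.7 and 23.2 on day 21 (log2 change -2.38, SE 0.14, adjusted p = 0.000625). It had the lowest adjusted p of all tested genes, and leaving out any library kept the change between -2.40 and -2.37. Tnn, tenascin-N or tenascin-W, had 83.5 and 128 TPM on day 15 and 11.4 and 7.68 on day 21 (log2 change -3.33, SE 0.29, adjusted p = 0.00629).

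Tnxb, tenascin-X, which binds collagen fibrils of mature dermis, went the other way, with 7.54 and 12.16 TPM on day 15 and 41.5 and 33.0 on day 21 (log2 change 1.84, SE 0.34, adjusted p = 0.041). Wisp2, also named Ccn5, had 76.3 and 138 TPM on day 15 and 593 and 782 on day 21 (log2 change 2.72, SE 0.28, adjusted p = 0.010). Its relative Ctgf, also named Ccn2, a target of TGF-beta and YAP, had 12.1 and 12.1 TPM on day 15 and 47.2 and 29.9 on day 21 (log2 change 1.56, SE 0.28, adjusted p = 0.041). The Tnxb and Ctgf calls were lost when any library of day 12, 15 or 21 was left out, with adjusted p up to 0.234 and 0.225, and that of Tnxb also under quantile normalization. Tnn and Wisp2 lost theirs only without a library of day 21 (up to 0.0984 and 0.132).

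Small leucine-rich proteoglycans, which bind and space collagen fibrils, had calls in both directions. Of 11 tested, 2 rose and 1 fell, and the median log2 change was 0.47. Both day 21 libraries lay above both of day 15 for 5 (18.0% of all genes) and below for 4 (30.3%). Prelp, which anchors basement membranes to collagen, had 72.5 and 144 TPM on day 15 and 404 and 350 on day 21 (log2 change 1.87, SE 0.33, adjusted p = 0.039). Podn had 20.3 and 29.6 TPM on day 15 and 70.5 and 68.4 on day 21 (log2 change 1.47, SE 0.24, adjusted p = 0.0326). Kera, keratocan, known from the cornea, had 76.4 and 85.5 TPM on day 15 and 23.8 and 34.7 on day 21 (log2 change -1.46, SE 0.23, adjusted p = 0.0306). Kera did not pass under quantile normalization, median-ratio scaling or rescaling without the 20 highest genes, nor Prelp under median-ratio scaling.

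No elastic fibre gene passed among 17 tested with limma, but 7 had an unadjusted p under 0.05. Both day 21 libraries lay above both of day 15 for 13 of the 17 (18.0% of all genes). The median log2 change of the list was 0.48. Eln, elastin, had 88.5 and 212 TPM on day 15 and 505 and 856 on day 21 (log2 change 2.25, SE 0.45, adjusted p = 0.0525). Fbn1, fibrillin-1, had 63.4 and 64.5 TPM on day 15 and 96.5 and 118 on day 21 (log2 change 0.73, SE 0.15, adjusted p = 0.0541). Both sit just past the threshold.

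Collagen genes did not pass. Among 9 fibrillar collagens tested, 3 had an unadjusted p under 0.05 and none an adjusted p under it, and among 16 others the numbers were 7 and 0. The summed TPM of the fibrillar collagens was 47070 and 50144 on day 15 and 84712 and 67048 on day 21. The median log2 change over their genes was 0.00, and it was -0.04 after rescaling without the 20 highest genes. Col7a1, the anchoring fibril collagen under the epidermis, had 132 and 126 TPM on day 15 and 81.5 and 51.9 on day 21 (log2 change -0.97, adjusted p = 0.0676). Agrn, agrin of basement membranes, fell from 81.2 and 62.6 to 30.8 and 24.0 TPM (log2 change -1.36, adjusted p = 0.0382). Mmp3, the stromelysin that degrades proteoglycans, rose from 227 and 191 to 633 and 497 TPM (log2 change 1.42, SE 0.25, adjusted p = 0.0392), the only 1 of 32 matrix proteases and inhibitors that passed. The Agrn and Mmp3 calls were lost without a library of day 15 or 21, and Agrn also without 1 of day 12 or under rescaling without the 20 highest genes.

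**Figure D3:**
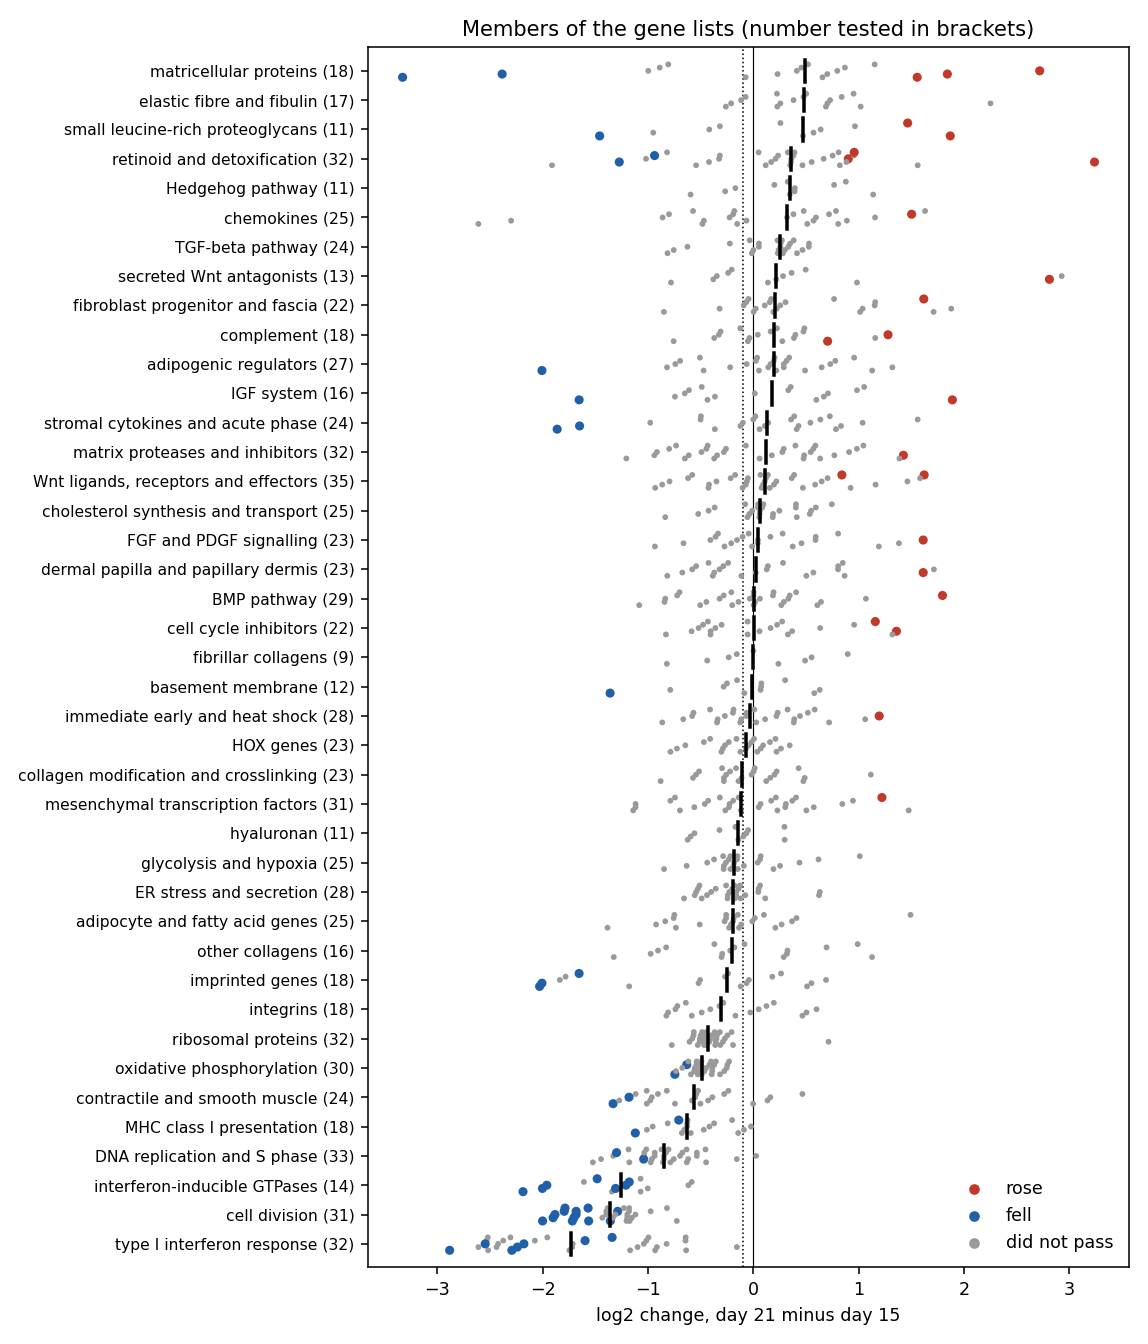
Log2 change from day 15 to day 21 of each tested member of the 41 gene lists, with red for genes that rose, blue for genes that fell and grey for genes that did not pass. Black bars are list medians and the dotted line is the median of all tested genes at -0.10. Lists of type I interferon response, cell division and interferon-inducible GTPases have the lowest medians, at -1.73, -1.36 and -1.26.

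Contractile genes were lower on day 21. Of 24 tested, 2 fell and none rose, and the median log2 change was -0.57. Both day 21 libraries lay below both of day 15 for 15 of the 24 (30.3% of all genes). Actg2, the smooth muscle gamma actin, had 85.4 and 78.9 TPM on day 15 and 37.7 and 27.2 on day 21 (log2 change -1.33, SE 0.17, adjusted p = 0.0193). Tpm2, a tropomyosin, had 381 and 330 TPM on day 15 and 163 and 149 on day 21 (log2 change -1.18, SE 0.20, adjusted p = 0.0382). Tpm2 did not pass under quantile normalization, median-ratio scaling or rescaling without the 20 highest genes. Tagln, the gene whose promoter drives the Cre, had 200 and 128 TPM on day 15 and 84.5 and 85.5 on day 21, short of the threshold (log2 change -0.91, adjusted p = 0.216).

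Markers of pericytes and vascular smooth muscle moved in the same direction as the contractile genes, and Myh11 and Des are members of both lists. All 12 markers had log2 changes below 0, with a median of -0.88, but none passed and 2 had an unadjusted p under 0.05. Their summed level was 2763 and 1054 TPM on day 15 and 1133 and 631 TPM on day 21. Rgs5, a pericyte marker named after its values were seen, had 1261 and 400 TPM on day 15 and 428 and 196 on day 21. Library 1 of day 15 was the highest of the 8 and library 3 lay among the day 21 libraries, and the part of these cells in the contractile genes was not tested. In bulk libraries fewer cells of a type and less RNA per cell cannot be told apart.

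In the lists of signals and their inhibitors few genes passed, though in some lists many members were higher on day 21. Dkk2, a secreted Wnt antagonist of the dermis, had 2.75 and 3.51 TPM on day 15 and 25.6 and 30.3 on day 21 (log2 change 2.81, SE 0.26, adjusted p = 0.00781). Day 12 was near the day 15 level, at 1.74 and 3.45 TPM, and day 26 was higher still, at 52.2 and 48.8. It was the only 1 of 13 Wnt antagonists tested that passed. Both day 21 libraries lay above both of day 15 for 6 of the 13 and below for 2 (18.0% and 30.3% of all genes). In the list of Wnt ligands, receptors and effectors these numbers were 12 and 6. Among 35 Wnt ligands, receptors and effectors, Wnt16 rose from 2.72 and 2.43 to 10.7 and 9.36 TPM (log2 change 1.62, adjusted p = 0.0232) and Tcf7l2, a transcription factor of the pathway, from 37.1 and 35.0 to 73.4 and 58.0 TPM (log2 change 0.84, adjusted p = 0.0476).

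Bmp4, a bone morphogenetic protein of the dermis and hair follicle, was the only 1 of 29 BMP pathway genes that passed. It had 5.04 and 8.88 TPM on day 15 and 28.02 and 23.8 on day 21 (log2 change 1.796, SE 0.34, adjusted p = 0.0449), while Bmpr1a, its receptor, stood at 17.0 and 15.06 and then 15.5 and 16.6 TPM (log2 change 0.00, SE 0.19, adjusted p = 0.999). The median of the list was 0.00. Both day 21 libraries lay above both of day 15 for 10 of the 29 genes and below for 7 (18.0% and 30.3% of all genes). The Bmp4 call was lost without any library of day 12, 15 or 21 (adjusted p up to 0.244), with a pseudocount of 0.1 and with quantile normalization. Fgf7, the keratinocyte growth factor made by fibroblasts, had 2.40 and 2.02 TPM on day 15 and 7.44 and 10.4 on day 21 (log2 change 1.61, SE 0.29, adjusted p = 0.041). No gene of the TGF-beta list (24 tested, 6 with an unadjusted p under 0.05, median 0.25) or the Hedgehog list (11 tested, 3 with an unadjusted p under 0.05, median 0.35) passed. Both day 21 libraries lay above both of day 15 for 14 TGF-beta genes and 5 Hedgehog genes (18.0% of all genes). They lay below for 4 and 1 (30.3% of all genes).

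In the insulin-like growth factor system 1 gene rose and 1 fell among 16. Igfbp2, which binds insulin-like growth factors, had 1906 and 3423 TPM on day 15 and 7634 and 11743 on day 21 (log2 change 1.89, SE 0.32, adjusted p = 0.0363). Igf2, the growth factor expressed from the paternal allele, had 54.2 and 60.1 TPM on day 15 and 17.3 and 17.6 on day 21 (log2 change -1.65, SE 0.32, adjusted p = 0.0464). Of 18 imprinted genes tested, 3 fell and none rose (0.910% and 0.491% of all genes), with a median of -0.25. Both day 21 libraries lay below both of day 15 for 10 and above for 5 (30.3% and 18.0% of all genes). Dlk1, a membrane protein that holds back fat cell differentiation, had 42.1 and 24.5 TPM on day 15 and 8.70 and 6.02 on day 21 (log2 change -2.01, SE 0.35, adjusted p = 0.0382). Nnat, neuronatin, had 12.22 and 16.8 TPM on day 15 and 2.18 and 3.44 on day 21 (log2 change -2.03, SE 0.31, adjusted p = 0.0266). The Igf2 call was lost under quantile normalization and both rescalings, and that of Igfbp2 under median-ratio scaling. The Igf2, Dlk1 and Nnat calls were lost when any 1 library of day 12, 15 or 21 was left out. That of Igfbp2 was lost when 1 library of day 21 was left out.

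Inhibitors of the cell cycle rose in 2 of 22 cases and fell in none. Cdkn1a, p21, had 78.6 and 105 TPM on day 15 and 251 and 219 on day 21 (log2 change 1.36, SE 0.20, adjusted p = 0.0242). Cdkn2a, which encodes p16 and p19ARF, had 10.1 and 13.2 TPM on day 15 and 26.0 and 28.2 on day 21 (log2 change 1.16, SE 0.21, adjusted p = 0.041). Cdkn2a did not pass under quantile normalization. Over the whole list the median was 0.00.

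The largest rise among the genes chosen by level and change was that of Cyp2f2, a cytochrome P450 best known from lung club cells. It had 7.58 and 18.9 TPM on day 15 and 147 and 102 on day 21 (log2 change 3.24, SE 0.35, adjusted p = 0.0115), with day 12 at 3.29 and 2.89 and day 26 at 498 and 417. The levels of the 4 days did not overlap. Of 32 retinoid and detoxification genes, 3 rose and 2 fell: Fmo1, a flavin monooxygenase, rose by 0.96 on the log2 scale and Adh1, an alcohol dehydrogenase of retinol metabolism, by 0.90. Hmox1, haem oxygenase, had 111 and 122 TPM on day 15 and 49.4 and 46.1 on day 21 (log2 change -1.27, adjusted p = 0.0326), and Txnrd1, thioredoxin reductase, fell by 0.94. Hmox1 did not pass under quantile normalization, median-ratio scaling or rescaling without the 20 highest genes. Adh1 was named after its values were seen.

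Among genes at lower levels, 3 that rose were named after their values were seen. Coch, cochlin, an extracellular protein known from the inner ear, had 0.33 and 0.28 TPM on day 15 and 32.6 and 15.05 on day 21 (log2 change 4.15, SE 0.60, adjusted p = 0.0232). Krt71, a keratin of the inner root sheath of the hair follicle, had 0.05 and 0 TPM on day 15 and 9.75 and 8.21 on day 21 (log2 change 3.28, SE 0.49, adjusted p = 0.0257). Ism1, isthmin, had 4.74 and 4.53 TPM on day 15 and 19.4 and 19.8 on day 21 (log2 change 1.87, adjusted p = 0.0144).

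Serpina3n, a protease inhibitor, had 218 and 129 TPM on day 15 and 538 and 647 on day 21 (log2 change 1.81, SE 0.27, adjusted p = 0.0245). Lbp, which presents bacterial lipopolysaccharide, had 14.9 ± 0.233 TPM on day 15 and 57.8 ± 18.7 on day 21 (SD, n = 2, log2 change 1.85, adjusted p = 0.0449), and did not pass under quantile normalization or median-ratio scaling. Cxcl14, the only 1 of 25 chemokines that passed, had 18.9 and 21.6 TPM on day 15 and 58.6 and 59.6 on day 21 (log2 change 1.503, SE 0.17, adjusted p = 0.0144). In the complement list 2 of 18 rose: Serping1, the C1 inhibitor, from 911 and 911 to 1473 and 1499 TPM (log2 change 0.71, adjusted p = 0.0382, lost under median-ratio scaling), and C1qtnf7 from 29.3 and 30.8 to 75.7 and 72.9 TPM (log2 change 1.28, adjusted p = 0.0188). Il1rl1, the receptor of interleukin-33, fell from 18.0 and 15.5 to 4.06 and 3.69 TPM (log2 change -1.86, adjusted p = 0.0115) and Ptx3, a long pentraxin, from 105 and 127 to 35.1 and 37.1 TPM (log2 change -1.65, adjusted p = 0.0187). They were the 2 genes that passed among 24 stromal cytokine and acute phase genes.

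Ly6c1 rose from 108 and 188 to 391.9 and 491 TPM (log2 change 1.62, adjusted p = 0.0373) and was the only 1 of 22 fibroblast progenitor and fascia genes that passed. Osr1, a transcription factor of connective tissue progenitors, rose from 38.7 and 45.4 to 92.4 and 106 TPM (log2 change 1.22, adjusted p = 0.0232), alone among 31 mesenchymal transcription factors. Gal, the neuropeptide galanin, rose from 7.71 and 14.5 to 49.4 and 40.4 TPM (log2 change 1.97, adjusted p = 0.0198). Ptn, the growth factor pleiotrophin, fell from 126 and 195 to 39.6 and 37.8 TPM (log2 change -1.99, adjusted p = 0.0232), and Plac8 from 181 and 164 to 42.6 and 40.0 TPM (log2 change -2.04, adjusted p = 0.0193). Each of these calls was lost when 1 library of day 21 was left out. Those of Ly6c1 and Osr1 were also lost without library 1 of day 15. That of Ly6c1 was lost without either library of day 12 and under median-ratio scaling as well.

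Genes of fat cell formation, the subject of the study's title, mostly did not pass. Of 27 adipogenic regulators tested, Dlk1 fell and none rose, with 8 at an unadjusted p under 0.05 and a median of 0.19. Log2 changes were above 0 for 19 of the 27 and below for 8. Both day 21 libraries lay above both of day 15 for 9 and below for 2 (18.0% and 30.3% of all genes). Zfp423, a zinc finger protein of preadipocytes, had 5.94 and 6.43 TPM on day 15 and 12.34 and 17.5 on day 21, short of the threshold (log2 change 1.13, SE 0.27, adjusted p = 0.0828). Pparg, the master regulator of adipogenesis, had 6.10 and 2.86 TPM on day 15 and 6.70 and 3.47 on day 21 (log2 change 0.16, SE 0.37, adjusted p = 0.85). The 2 days overlapped for Pparg.

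No adipocyte or fatty acid gene passed with limma among 25 tested, and 4 had an unadjusted p under 0.05. Both day 21 libraries lay above both of day 15 for 2 and below for 7 (18.0% and 30.3% of all genes). Fabp4, a fatty acid carrier of fat cells and endothelium, had 68.4 and 33.1 TPM on day 15 and 34.6 and 31.8 on day 21 (log2 change -0.51, SE 0.50, adjusted p = 0.635). Fabp5, its relative in skin and macrophages, had 196 and 282 TPM on day 15 and 99.7 and 80.4 on day 21 (log2 change -1.38, SE 0.28, adjusted p = 0.054). Of 10 markers of mature adipocytes 4 passed the filter, and Adipoq, the hormone adiponectin, was under it, at 0.33 and 0 TPM on day 15 and 0.60 and 0.09 on day 21.

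Housekeeping lists lay below the median of all genes by smaller amounts. Of 30 oxidative phosphorylation genes tested, 2 fell and the median log2 change was -0.49. Both day 21 libraries lay below both of day 15 for 28 of the 30 (30.3% of all genes). Uqcrc2, a core subunit of complex III, had 110 and 92.6 TPM on day 15 and 61.4 and 58.3 on day 21 (log2 change -0.74, adjusted p = 0.0437), and Ndufa4 fell by 0.63 (adjusted p = 0.0476). Neither passed under quantile normalization, median-ratio scaling or rescaling without the 20 highest genes. No ribosomal protein gene passed among 32 (23 with an unadjusted p under 0.05), yet 29 had both day 21 libraries below both of day 15, with a median of -0.43. Both medians stayed below 0 under each scaling.

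A change between days 15 and 21 can be a step on a longer course or can turn at day 21. The change from day 15 to 21 was therefore tested against the change from day 21 to 26 in the same limma fit, and 13 genes passed (0.0863% of tested genes), 9 with the earlier step higher and 4 with it lower. Against the change from day 12 to 15, none passed, with 1060 genes at an unadjusted p under 0.05 and 1 gene passing when the variance prior had no trend. Both tests share the libraries of day 21 or day 15 with the main comparison.

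Of the 4 genes with the earlier step lower, 3 turned at day 21. Iigp1 went from 51.9 and 61.3 TPM on day 15 to 13.4 and 10.1 on day 21, then 28.2 and 35.3 on day 26 (difference of the steps -3.55 on the log2 scale, adjusted p = 0.0213). Tgtp2 returned to 29.4 and 39.5 TPM on day 26 (difference -3.08, adjusted p = 0.0406). Btg3, an antiproliferative protein named after its values were seen, had 21.19 and 25.2 TPM on day 15, 7.99 and 6.45 on day 21, then 21.0 and 23.5 on day 26 (difference -3.07, adjusted p = 0.0305). The other gene, Tnc, did not turn but flattened, at 17.7 and 16.2 TPM on day 26 (difference -1.93, adjusted p = 0.0406).

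Among the genes with the earlier step higher, Adam33, Prrt2, Per1 and Cpa3 are protein-coding and the other 5 are small RNA genes. All were named after their values were seen except Cpa3. Of the small RNA genes, Gm22121, Snord100 and Gm25040 passed the filter only through day 21, which fixed their direction in advance. Adam33, a membrane metalloprotease of mesenchymal cells, had 82.7 and 53.5 TPM on day 15, 174 and 168 on day 21, then 66.8 and 60.4 on day 26 (difference 2.77, adjusted p = 0.0406). Prrt2 had 4.91 and 3.47 TPM on day 15, 21.5 and 15.4 on day 21, then 5.84 and 4.87 on day 26 (difference 3.5002, adjusted p = 0.0449). Per1, a clock gene whose mRNA cycles over the day, had 16.7 and 17.5 TPM on day 15, 39.4 and 42.5 on day 21, then 12.4 and 15.09 on day 26 (difference 2.72, adjusted p = 0.0488). The labels give no time of day for the tissue harvest. Ctgf fell to 11.7 and 6.85 TPM by day 26, below its day 21 level of 47.2 and 29.9 TPM. Its day 12 libraries, at 36.9 and 30.8 TPM, overlapped that level, so day 21 was no clear peak. Ctgf did not pass this test (adjusted p = 0.0597). No gene passed it without any 1 library of day 12 or day 21, and each of the 13 passed in 1 to 3 of the 8 fits that left out 1 library. Cpa3 and Gm26269 did not pass the main comparison.

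**Figure D4:**
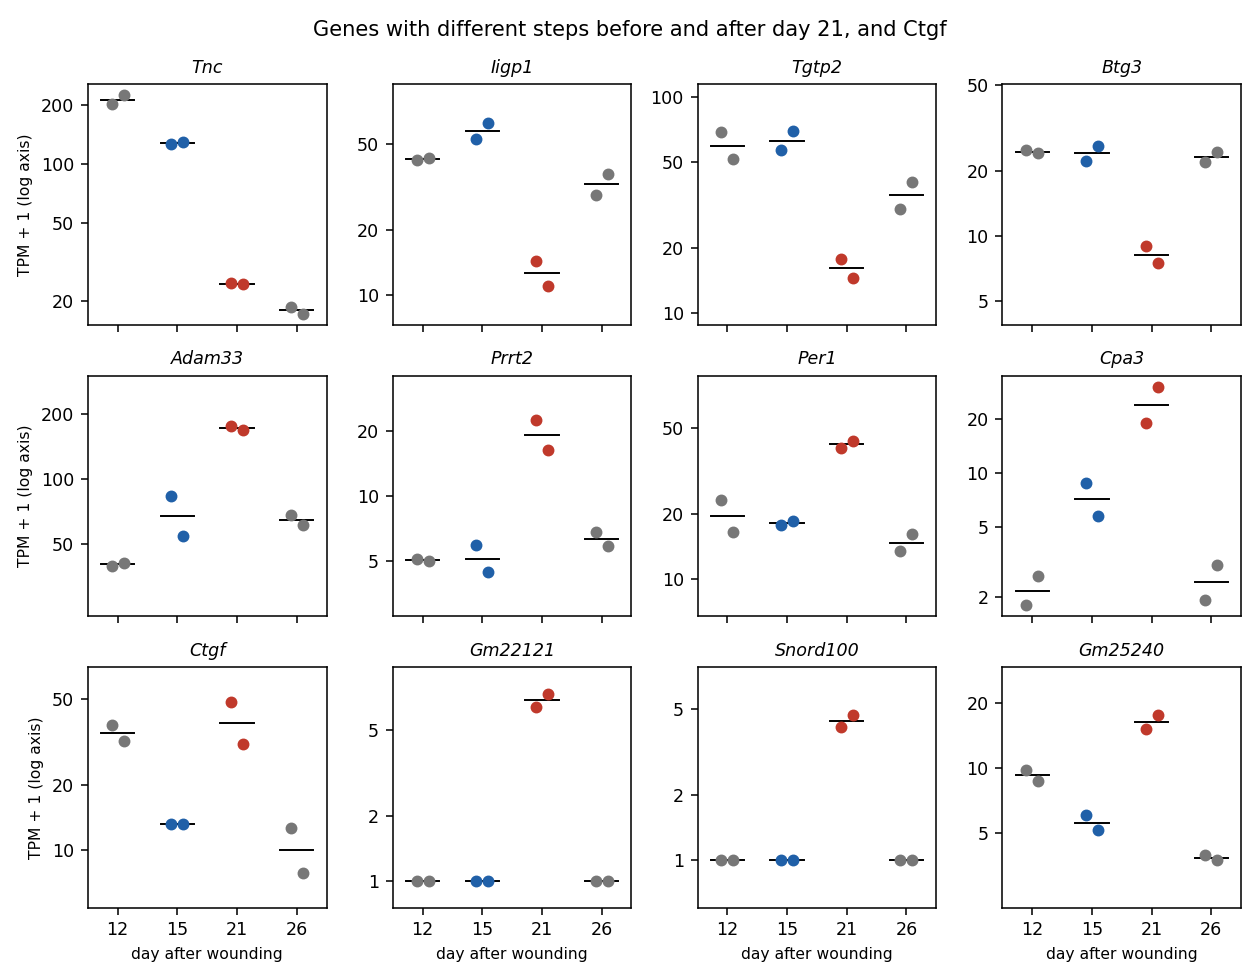
TPM + 1 on a log axis in each library of days 12, 15, 21 and 26 for 11 of the 13 genes whose day 15 to 21 step differed from the day 21 to 26 step, and for Ctgf. Points are libraries and bars are means of the 2 log values, and day 21 (red) is the lowest for Iigp1, Tgtp2 and Btg3 and the highest for the others except Tnc, which is lowest on day 26, and Ctgf, whose day 12 and day 21 points overlap.

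More small RNA genes were listed on day 21 than on day 15. Libraries of day 21 listed 193 and 195 small RNA genes at 1 TPM or more, against 154 and 139 on day 15. The numbers were 206 and 154 for day 12, and those of day 26 were 114 and 124. Of 255 tested, 9 rose (0.491% of all genes did) and none fell. Both day 21 libraries lay above both of day 15 for 80 (18.0% of all genes) and below for 17 (30.3%). Some of the 80 passed the filter only through day 21, which fixed their direction in advance, such as Gm26413 (1.36 and 1.62 TPM on day 21). Some entries hold identical values, such as Rnu1a1 and Gm22068 (2.03 and 2.24 TPM on day 21), so these counts hold the same signal more than once. Gm22121, a gene model annotated as a miRNA on chromosome 11, had 5.44 and 6.41 TPM on day 21 and was listed at 0 in the 6 other libraries (log2 change 2.79 on the log2(TPM + 1) scale, SE 0.28, adjusted p = 0.010). Snord100, a small nucleolar RNA within an intron of a ribosomal protein gene, had 3.13 and 3.70 TPM on day 21 and was listed at 0 elsewhere (log2 change 2.14, adjusted p = 0.0198). Of the 9 that rose, 5 were listed at 0 in all 6 other libraries. These 5 passed the filter only through day 21, as did Gm25040 and Gm23127. For such genes, Gm22121 and Snord100 among them, the filter fixed the direction in advance, so their calls are no test of a rise. SMART-seq2 is not made to capture RNAs this short, so these are values of the table and not amounts of mature small RNAs.

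Markers of other cell types were present in the sorted cells and some moved with day. Of 15 keratinocyte markers tested, 1 rose and none fell, with 10 log2 changes above 0 and 5 below. Their median was 0.97, and it lay between 0.40 and 1.22 over the fits that left out 1 library. Krt15, a keratin of basal and hair follicle bulge cells, had 2.78 and 2.59 TPM on day 15 and 13.8 and 12.4 on day 21 (log2 change 1.94, SE 0.26, adjusted p = 0.0198). The summed level of the list was 54.9 and 124 TPM on day 15 and 148 and 180 on day 21. Krt71 above moved with it, and the part of keratinocyte RNA in that rise was not tested.

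The 8 mast cell markers tested had a median log2 change of 1.14, and 5 had both day 21 libraries above both of day 15 (18.0% of all genes did). None of the 8 passed, and 4 had an unadjusted p under 0.05. Their summed level was 69.8 and 53.6 TPM on day 15, 126 and 244 on day 21, then 4.88 and 27.7 on day 26. Cpa3, the carboxypeptidase of mast cell granules, had 7.83 and 4.74 TPM on day 15 and 18.2 and 29.5 on day 21 (log2 change 1.76, SE 0.37, adjusted p = 0.0599).

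Macrophage and leukocyte markers stood at 2216 and 3424 TPM in sum on day 15 and 2635 and 2624 on day 21, with none of 18 passing and 4 at an unadjusted p under 0.05. Cd74, the invariant chain of MHC class II, had 252 and 636 TPM on day 15 and 855 and 915 on day 21 (log2 change 1.14, SE 0.36, adjusted p = 0.147). Library 3 of day 15 was the higher of its day both for these markers and for the interferon genes, and their part in those genes was not tested.

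Libraries also differed in Xist, the RNA that coats the inactive X chromosome of female cells, at 30.7 and 5.54 TPM on day 15 and 4.78 and 27.5 on day 21, while the 4 other libraries were at 0.01 TPM or less. Eif2s3y, a Y-linked gene, was at 0 and 25.7 TPM on day 15 and 36.1 and 13.6 on day 21. The higher Xist library was number 1 on day 15 and number 3 on day 21. Within each of these days the libraries differed in both genes, so they did not hold the same mix of female and male cells. With the Xist level as a covariate 85 genes passed, of which 78 were among the 211.

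**Figure D5:**
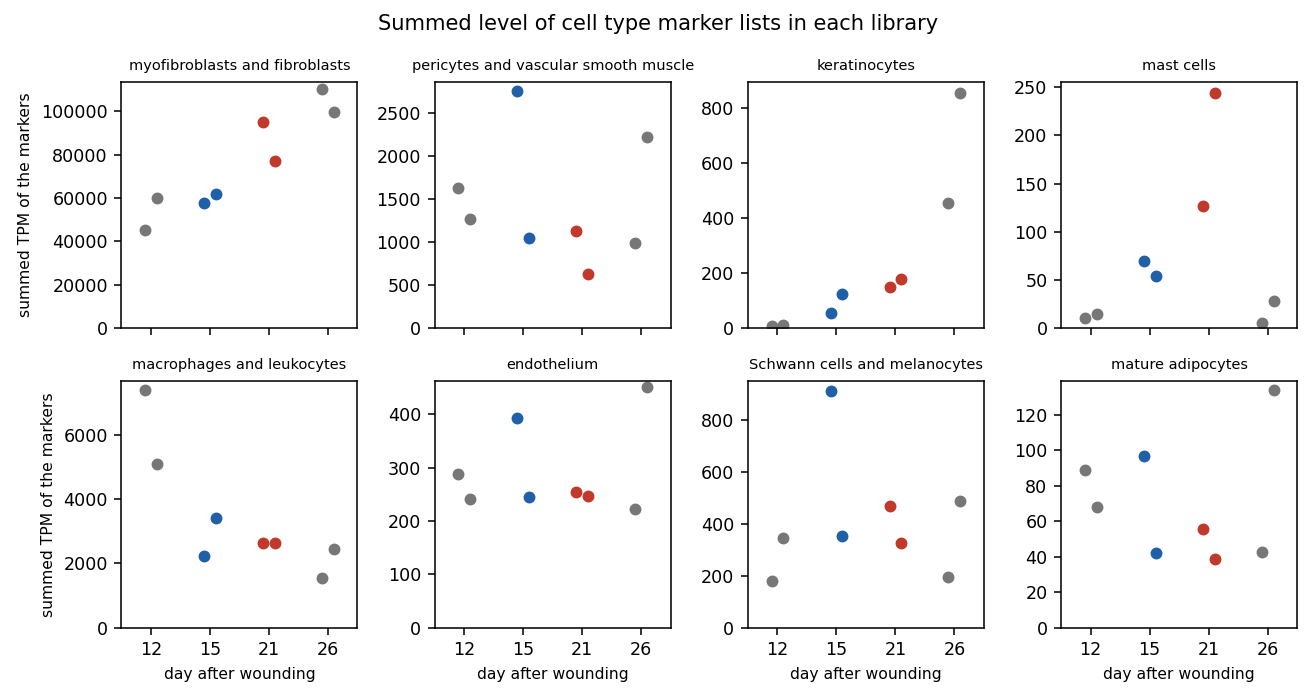
Summed TPM of 8 cell type marker lists in each library of days 12, 15, 21 and 26, on axes that start at 0. Points are libraries, blue for day 15 and red for day 21, and mast cell markers are highest on day 21 (126 and 244 TPM) while pericyte markers are highest in 1 library of day 15 (2763 TPM).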

How the data were processed

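RNA of sorted wound cells was measured in 8 SMART-seq2 libraries, 2 a day. The authors deposited a table whose signal values are TPM plus 1 per gene, as the columns' totals show, and 1 was subtracted here. Per the submitters' processing notes RSEM 1.12.2 and mm10 were used, and the aligner is not given in the sources used here. RSEM divides reads shared by near-identical genes by estimation. A further 40 columns of values were not used here. P-values in the authors' deposited cluster tables were not used as results.

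Genes with at least 1 TPM in 2 of the 8 libraries were tested with limma 3.58.1 in R 4.3.3 on log2(TPM + 1), day as a factor and a trended variance prior, so a fold change is on that scale and understates the change of low genes. P-values were adjusted by Benjamini-Hochberg over all tested genes. Depth is unknown from TPM, so no counting interval is given.

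The members and lists were chosen with earlier results of these data known. Named genes are the 15 largest rises and 15 largest falls among genes that passed at or above the median level, without cell type markers, small RNAs and gene models; from every list, at most 4 members past the threshold, or failing that its 2 lowest p-values; and a fixed set that includes Acta2, Tagln, Pparg, Bmp4 and Xist. Others are marked as named after their values were seen. Table numbers identify libraries. Promoters are from RefSeq (GRCm38.p6) for 10903 tested genes, 10342 matched under the same symbol and the others under an older symbol held by 1 gene. Alternatives covered pseudocount, filter, scaling, variance prior, Xist as a covariate, each library left out and, added after the data were seen, the table number as a block. Python 3.11.15 and pandas 2.3.3 made the tables. The result of 1 gene is not reported here.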

Additional observations from a re-analysis of the deposited data

How the results depend on the processing

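The count of genes that passed between days 15 and 21, 211 as reported, was 134 with a pseudocount of 0.1, 44 with no filter on low values, 16 with days 15 and 21 alone, 51 with a variance prior without a trend and 85 with the Xist level as a covariate. Leaving out 1 library gave between 2 and 321. Other pseudocounts, filters and scalings kept it within 1.5 times. For the step to day 21 against the step to day 26, 13 genes as reported became 3 with a pseudocount of 0.1, 20 with no filter, 6 with at least 5 TPM in 2 libraries and 0 with the Xist covariate, and between 0 and 35 without 1 library. Against the step from day 12 to 15, 0 became 1 with a prior without a trend and between 0 and 9 without 1 library. Of the 125 named genes that passed, 0 reversed under any alternative and 2 passed in every fit without 1 library. The causes were not tested. With 2 libraries a day, each left-out fit leaves a day with 1 library that is assumed to vary like the other days. The labels do not say that a table number links libraries, and days 15 and 21 share only number 3. With the table number as a replicate block over all 8 libraries, an incomplete block with 2 residual degrees of freedom that was chosen after seeing the data, 83 genes passed between days 15 and 21, of which 60 were among the 211, and 7 and 0 passed in the tests of the steps. Depth could not be assessed from TPM.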
